A study of Mus musculus with 4 samples.

Results

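The mitochondrial ribosomal protein genes were the genes of the count table whose symbols are Mrpl or Mrps followed by a digit, with at least 10 reads in at least 1 library. There were 77 such genes of 14393 genes past this count minimum and of 24421 genes in the whole table, and each of the 77 symbols in the table passed it. The lowest count of a member was 96 reads, for Mrps33 in KO1. RNA sequencing was performed on polyadenylated RNA of whole embryos of ICR mice, an outbred stock, in 4 libraries. Wild-type embryos gave 1 library each at E7.5 and at E8.5 (named E7.5 WT and E8.5 WT, where E stands for embryonic day), and Ddx6 -/- embryos of E8.5 gave 2 libraries (KO1 and KO2). Where 4 values follow each other in library order, they stand for the earlier wild type, the later wild type, KO1 and KO2. Ddx6 encodes an RNA helicase of P-bodies, and the null allele came from removal of a floxed exon with Cre under the CAG promoter, so the gene was lost in all tissues. The KO libraries were pools of embryos: per the study's text, KO1 mixed embryos from before and after head-fold formation, and KO2 held embryos from before it. The labels do not say that KO1 and KO2 came from separate litters, so the p-values below measure only the spread between these libraries.

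Mitochondria keep their own ribosome, which translates the messages of the mitochondrial genome. Those messages encode core subunits of the oxidative phosphorylation complexes. All proteins of this ribosome are encoded in the nucleus, made on cytosolic ribosomes and imported, and they assemble with mitochondrial ribosomal RNA into a small subunit, which decodes the message, and a large subunit, which forms the peptide bond. Part of the proteins descend from bacterial ribosomal proteins and the rest were added in the mitochondrial lineage. Embryos at these stages are known to change their energy metabolism as organs begin to form.

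By their place in the ribosome, 26 members belonged to the small subunit and 50 to the large subunit. Mrps18a and Mrps30 were counted with the large subunit, where their proteins sit despite their names. Mrps36 stood apart, since its protein is a component of the 2-oxoglutarate dehydrogenase complex. The gene for the large-subunit protein Mrpl58 was listed under its older symbol Ict1 and is described with the subunits of other names. The members lay on 17 chromosomes of GRCm38, with 10 on chromosome 11 as the highest number.

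The promoters of the members are shown first, because mitochondrial ribosomal genes are known targets of NRF1, of the ETS-family factor GABP and of YY1, which also drive other nuclear genes of mitochondria. RefSeq promoters (GRCm38.p6, 250 bases before to 50 after the start) were found for 68 of the 77 members. They were searched on both strands for GCATGCGC (NRF1), CCGGAAGT (ETS) and AAGATGGC (YY1), each of 8 letters. At least 1 of these was present in 29 members (42.6%), against 17.5% of genes past the count minimum with a promoter and 9.91% of all genes with one. The YY1 letters were in 17.6% of members against 4.88% of the genes past the minimum, the ETS letters in 17.6% against 8.29%, and the NRF1 letters in 11.8% against 5.77%. The NRF1 letters read nearly the same on either strand, so that GCGCATGCGC in Mrpl9 counted as overlapping hits.

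The examples below hold NRF1 letters (Mrpl17, Mrpl22, Mrpl32, Mrpl9), ETS letters (Mrpl3, Mrpl27, Mrpl52, Mrps22) or YY1 letters (Mrps18a, Mrpl36). Each runs from 80 bases before to 20 bases from the start on, 5′ to 3′ on the gene's strand, and capitals mark the searched letters on either strand. They lie at chr7:105811068-105811167 (minus strand) for Mrpl17, chr11:58171584-58171683 (plus strand) for Mrpl22, chr13:14613018-14613117 (minus strand) for Mrpl32, chr3:94443256-94443355 (plus strand) for Mrpl9, chr9:105053188-105053287 (plus strand) for Mrpl3, chr11:94653711-94653810 (plus strand) for Mrpl27, chr14:54426829-54426928 (plus strand) for Mrpl52, chr9:98601660-98601759 (minus strand) for Mrps22, chr17:46110924-46111023 (plus strand) for Mrps18a and chr13:73330929-73331028 (plus strand) for Mrpl36.
Mrpl17: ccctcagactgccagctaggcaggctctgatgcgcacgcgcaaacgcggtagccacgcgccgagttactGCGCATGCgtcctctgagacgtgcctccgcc
Mrpl22: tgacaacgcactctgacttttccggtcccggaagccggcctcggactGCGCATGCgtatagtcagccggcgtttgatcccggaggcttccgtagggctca
Mrpl32: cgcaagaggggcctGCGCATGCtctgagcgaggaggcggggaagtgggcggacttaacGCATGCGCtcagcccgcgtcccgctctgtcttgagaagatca
Mrpl9: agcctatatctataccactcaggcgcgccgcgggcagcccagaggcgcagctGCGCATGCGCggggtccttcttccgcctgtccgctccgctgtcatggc
Mrpl3: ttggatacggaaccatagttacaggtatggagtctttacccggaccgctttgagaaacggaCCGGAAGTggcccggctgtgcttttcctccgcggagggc
Mrpl27: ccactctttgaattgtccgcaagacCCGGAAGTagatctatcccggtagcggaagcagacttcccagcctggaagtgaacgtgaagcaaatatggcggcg
Mrpl52: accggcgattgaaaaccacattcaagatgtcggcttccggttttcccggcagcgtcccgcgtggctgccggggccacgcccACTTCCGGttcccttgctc
Mrps22: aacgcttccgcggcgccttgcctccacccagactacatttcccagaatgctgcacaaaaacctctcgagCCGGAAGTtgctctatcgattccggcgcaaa
Mrps18a: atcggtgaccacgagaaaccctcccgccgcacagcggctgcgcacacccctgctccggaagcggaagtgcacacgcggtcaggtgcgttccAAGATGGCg
Mrpl36: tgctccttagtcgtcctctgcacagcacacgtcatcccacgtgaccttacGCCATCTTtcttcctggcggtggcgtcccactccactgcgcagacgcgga

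Members with and without these letters were set side by side for the change between the wild-type stages, described in full below. The median log2 change was -0.20 for the 8 members with the NRF1 letters and -0.45 for the 60 without. It was -0.21 for the 12 with the ETS letters and -0.45 for the 56 without, and -0.56 for the 12 with the YY1 letters and -0.37 for the 56 without. These are descriptions of small groups and carry no test. A match of letters is not a bound site.

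Many members also share their promoter region with another gene. Of the 77, 33 (42.9%) had a protein-coding gene starting on the opposite strand within 1000 bases, against 14.7% of protein-coding genes past the count minimum. The starts used here are the gene starts of the GENCODE annotation, which can differ from the RefSeq starts of the printed promoters. For Mrpl36 the GENCODE start is chr13:73328513, outside the stretch printed above. Mrpl46 and Mrps11, a large- and a small-subunit gene, start 412 bases apart and are each other's partner. Other partners work in mitochondria too, such as Ndufs6 beside Mrpl36, Ndufb5 beside Mrpl47 and Sars2 beside Mrps12. By symbol, 30 partners were found past the count minimum, among them Mrpl46 and Mrps11 themselves. Twnk, beside Mrpl43, was not found under this symbol and is not counted. Of the 30, 25 were lower in E8.5 WT than in E7.5 WT. Of all genes past the minimum, 7327 of 14393 were. The median log2 change of the partners was -0.25, against -0.45 for the members beside them and -0.02 for all genes.

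The members were short genes with transcript levels above the median of all genes. The median exon length was 1280 bases, against 3175.5 for protein-coding genes past the count minimum, and the median number of exons was 5 against 9. Levels are given as RPKM, reads per kilobase of exon scaled to a common library total after TMM normalization. Over the 77 members the median RPKM was 37.5, 29.4, 25.5 and 28.1 in library order, while the median over all genes past the minimum was 7.42, 7.97, 8.09 and 8.13. In E7.5 WT 76 of 77 members were above the median of all genes, and in KO1, the library with the fewest, 69 were.

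**Figure D1:**
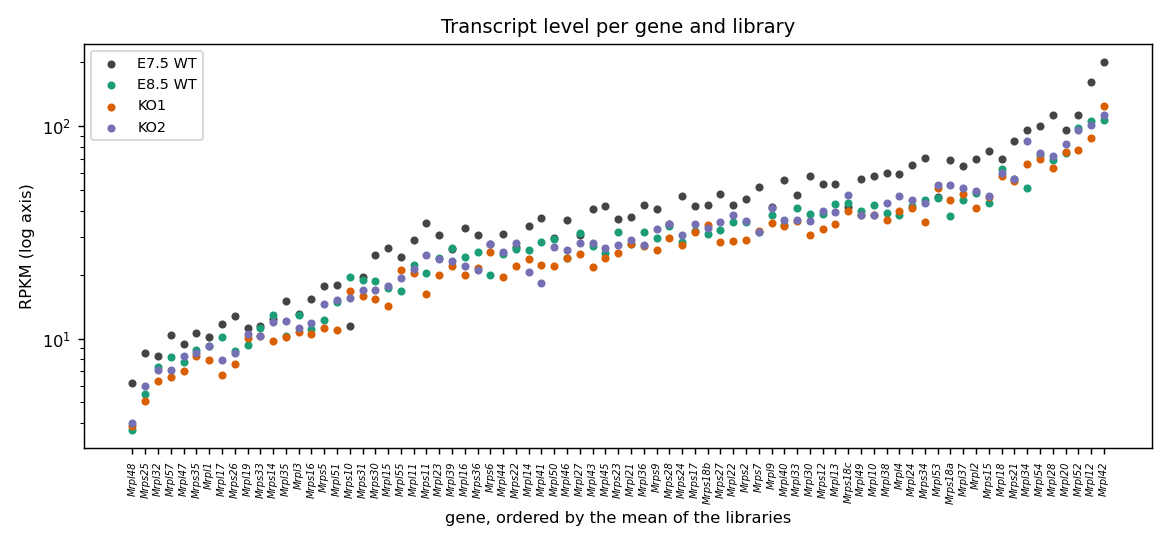
RPKM on a log axis of each of the 77 genes in each of the 4 libraries, 1 point per gene and library, ordered by the mean of the libraries. The dark E7.5 WT points lie at the top of most columns, and Mrps10 is the exception in which E7.5 WT is the lowest of the 4.

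The highest level was that of Mrpl42, a mitochondria-specific large-subunit protein. Its RPKM in library order was 199, 107, 124 and 112, with E7.5 WT well above the other libraries. Mrpl12, the stalk protein that recruits translation factors to the large subunit, followed at 160, 106, 88.1 and 101 in the same order. Mrpl52 stood at 113, 97.3, 77.2 and 95.6 RPKM, with KO1 the lowest of the 4. Mrpl20 and Mrpl28 were the next in mean RPKM, at 82.1 and 79.7 over the 4 libraries. At the other end Mrpl48, of the central protuberance, stood at 6.19, 3.71, 3.88 and 4.02 RPKM, and Mrps25, Mrpl32, Mrpl57 and Mrpl47 had mean RPKM of 6.28, 7.26, 8.04 and 8.12. The highest mean was 30.5 times the lowest. The order of the genes was much alike in every library: across the 77 genes, log2 RPKM correlated with Pearson's r of 0.967 to 0.989 between pairs of libraries, which share gene length and base composition, and genes are not independent replicates.

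Before the comparisons, the libraries themselves need a short account. Total counts were 8198402 in KO1 and 12008252 to 12562640 in the other libraries, and TMM factors were 0.978 to 1.02. Ddx6 had 2943, 5715, 706 and 929 reads in library order, with log2 changes against E8.5 WT of -2.47 and -2.61. The pools differed in tissue. The trophoblast giant cell gene Prl3d1 had 27, 1, 3 and 4156 reads in library order, and the embryonic globin gene Hbb-bh1 had 23, 1579, 3 and 3. Over the trophoblast list the summed level was 248.7, 182, 424 and 791 CPM, with 4 of 6 markers past the count minimum and Prl3b1 and Tpbpa at 0 reads throughout. Hand1, which mesoderm expresses too, held 2229 of the 2240 reads of this list in E8.5 WT and 3544 of 3562 in KO1, so that its sum was set by this gene there. Over the 6 primitive erythroid markers the summed level was 31.4, 247, 2.38 and 5.09 CPM. In E8.5 WT, Hba-x and Hbb-bh1 held 1221 and 1579 of the 3033 reads of this list. Between the wild-type stages 2 of the 6 went the other way, Gata1 from 205 to 65 reads and Alas2 from 133 to 67. Relative to E8.5 WT, all 6 visceral endoderm markers were lower in KO1 and KO2, with median log2 changes of -0.96 and -1.12, and the 6 markers of the embryo proper had medians of -0.98 and -3.02. The 5 extraembryonic ectoderm markers were at a summed 381, 126, 104 and 300 CPM, which single genes carried. Elf5 had 795, 3, 3 and 10 reads and Esrrb 532, 37, 22 and 33, so both were low in all E8.5 libraries. Eomes, also a primitive streak gene, held 3128 of the 3655 reads of the list in KO2, and Cdx2, also a posterior embryo gene, 1326 of 1553 in E8.5 WT. Whether these differences in tissue play a part in the values below was not tested. Per the study's methods, yolk sac or other extraembryonic tissue of the E8.5 embryos served for genotyping. How much of such tissue stayed with the RNA samples is not stated. In whole embryos, fewer cells of a type and less RNA per cell cannot be told apart.

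Mitochondrial ribosomal protein transcripts took the largest share of reads in E7.5 WT and a lower one in all E8.5 libraries. In library order the 77 genes together held 0.441%, 0.323%, 0.307% and 0.341% of the reads. E7.5 WT was the highest of the 4 libraries for 69 of the 77 genes, against 33.6% of all genes past the minimum. KO1 was the lowest library for 56 of the 77, against 23.3% of all genes.

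The comparison of E8.5 WT with E7.5 WT asks how these genes differ between the normal stages, and each stage had 1 library, so it has no replicate check and no p-value. Log2 changes are differences of log2 CPM with a prior count of 2. The median change of the 77 genes was -0.43, a level 1.35-fold lower in E8.5 WT, while the median of all genes was -0.02. The change was below 0 in 72 of 77 members, against 7327 of 14393 genes at large. The exact 95% counting interval of the change, which covers counting error only, lay below 0 in 61 members, against 33.4% of all genes, and above 0 in 1, against 34.2%. A log2 change past -0.5 was found in 29 members, against 21.4% of all genes, and past 0.5 in 1, against 25.8%. A log2 change past 1, the criterion of the study's methods, was found in 0 members in either direction, against 12.2% of all genes higher and 7.82% lower. The members lay close together: the SD of their changes was 0.28, against 0.99 over all genes. Genes at large needed only 10 reads in 1 library, while no member had under 96, and a set of like level was not compared.

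**Figure D2:**
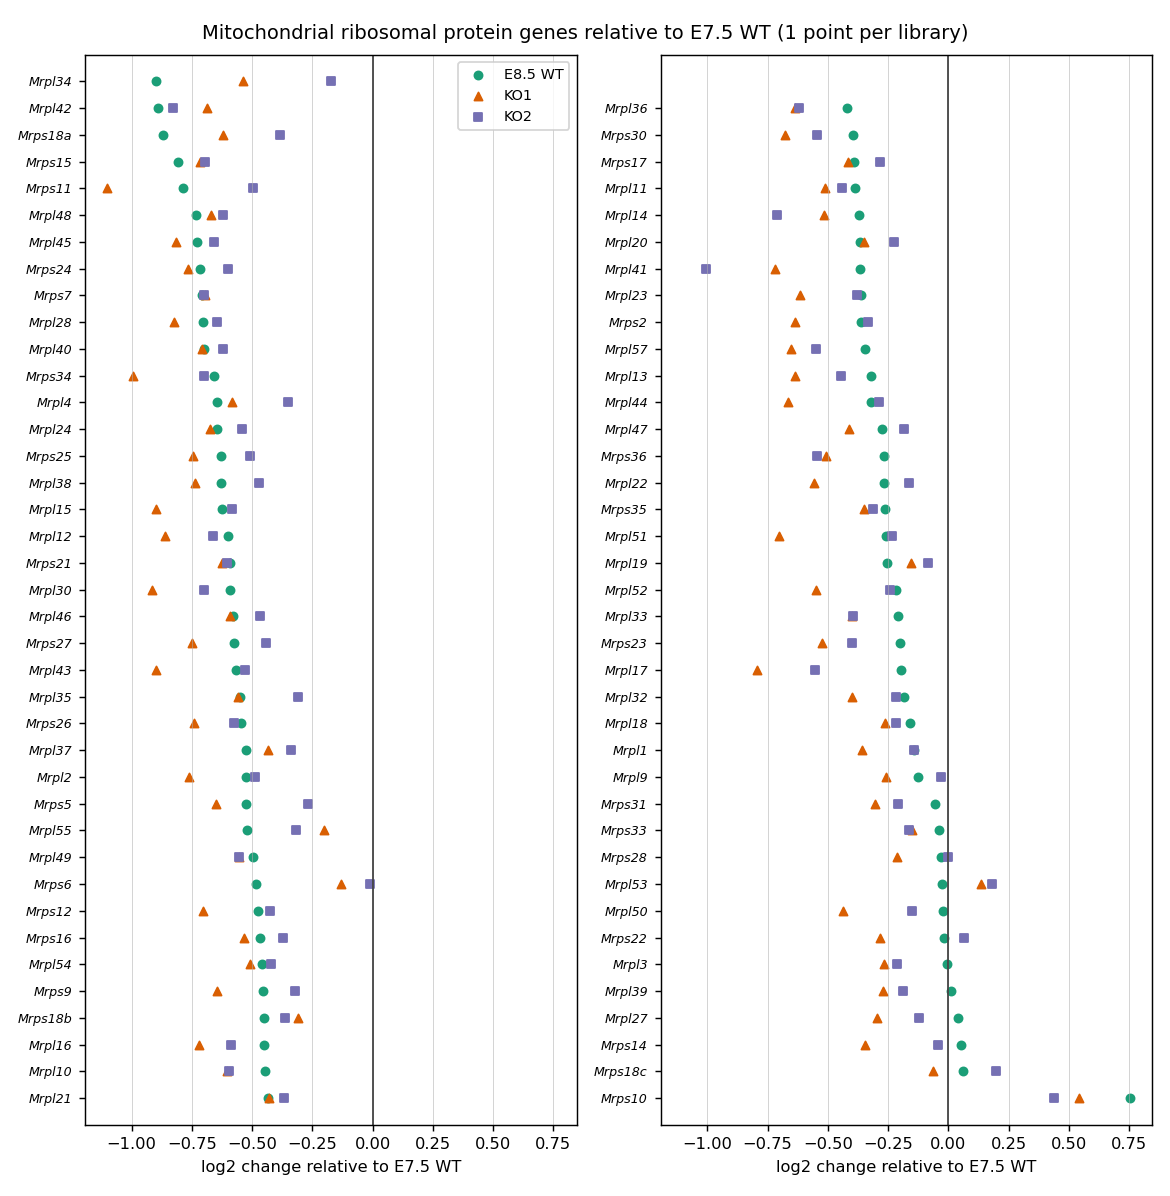
Log2 change of each of the 77 genes in E8.5 WT, KO1 and KO2 relative to E7.5 WT (the vertical line at 0), 1 point per library, ordered by the E8.5 WT change in 2 columns. Most points lie between 0 and -1, KO1 is often the leftmost of the 3, and Mrps10 lies to the right of 0 in all 3 libraries.

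The medians of the subunits were close to each other. The median change between the stages was -0.46 over the 26 small-subunit genes, 23 of which were lower in E8.5 WT, and -0.41 over the 50 large-subunit genes, 48 of which were lower. Proteins of bacterial descent and mitochondria-specific proteins had medians of -0.47 and -0.36 in the small subunit and of -0.38 and -0.48 in the large subunit. Mrps18b and Mrps18a, versions of a bacterial protein, were counted in the mitochondria-specific groups of the small and the large subunit. Among the functional regions of the large subunit, the 5 genes of the stalk, where translation factors bind, had a median of -0.45. The 4 genes of the polypeptide exit tunnel and membrane anchor had a median of -0.50, and the 6 genes of the central protuberance, at the interface with the small subunit, -0.61. In all 3 regions together 14 of the 15 genes were below 0, and Mrpl27 was the exception at 0.04.

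The lowest values between the stages were those of Mrpl34, Mrpl42, Mrps18a, Mrps15 and Mrps11. Mrpl34, a small large-subunit protein of bacterial descent (chr8:71464959-71465747 in GRCm38), had read counts of 693, 383, 337 and 629 in library order. Its change was -0.90 with a counting interval of -1.09 to -0.72. Mrpl42 had 1609, 895, 706 and 927 reads, and its change was -0.89. Mrps18a, whose protein is 1 of 3 versions of the bacterial S18 protein, had 725, 409, 332 and 569 reads and a change of -0.87. The other versions did not share this size, with -0.45 for Mrps18b and 0.06 for Mrps18c. Mrps15 and Mrps11 stood at -0.81 and -0.78.

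Mrps10, which codes for a small-subunit head protein (chr17:47368887-47381417), was the clearest exception. Its reads in library order were 161, 282, 166 and 224. Its level was 1.69-fold higher in E8.5 WT than in E7.5 WT, a log2 change of 0.75 with an interval of 0.48 to 1.05. It was the member whose interval lay above 0 between the stages, and also the member whose interval lay above 0 in both KO libraries against E7.5 WT. The other genes above 0 between the stages, Mrps18c, Mrps14, Mrpl27 and Mrpl39, had changes of 0.06, 0.05, 0.04 and 0.01, which their counting intervals did not separate from 0.

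Genes with known roles in translation lay within the range of the rest. Mrps12, of the decoding centre, had 594, 441, 257 and 452 reads and a stage change of -0.47. Mrps5 and Mrps2, both of bacterial descent, were at -0.52 and -0.36. Mrps7, a head protein, was at -0.71, and its KO libraries lay within 0.02 of E8.5 WT. Mrps27, with pentatricopeptide repeats, was at -0.58, Mrps34 at -0.66, and Mrps22, a mitochondria-specific protein, at -0.02. Mrps16 and Mrps28 were at -0.47 and -0.03. In the large subunit Mrpl3 and Mrpl4 were at -0.00 and -0.65. Mrpl10, to which the stalk proteins attach, was at -0.45, Mrpl11 at the stalk base at -0.39 and Mrpl12 at -0.60. Mrpl23 and Mrpl45, of the exit tunnel and the membrane anchor, were at -0.36 and -0.73, and Mrpl44, related to ribonucleases, at -0.32. Mrps30, a large-subunit protein, was at -0.40.

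The stage difference has to be read beside exon length. Over all genes past the minimum, the median stage change by quartile of exon length was -0.32 in the shortest quartile and -0.16, 0.09 and 0.45 in the next ones. Of the 77 members, 54 were in the shortest quartile. The member medians in the same order were -0.45, -0.35, -0.40 and -0.26, so that the members of each quartile were lower than its genes at large, and all 14 members of the 2 quartiles of longer genes were below 0. When each change was centred on the median of all genes in 20 bins of exon length, the stage median of the members became -0.19 with 57 of 77 below 0, that of the cytosolic ribosomal protein genes 0.00 and that of the nuclear oxidative phosphorylation genes -0.05. After centring, other lists of the pathway, described further on, ran from -0.30 for the mitochondrial tRNA synthetases to -0.05 for the import translocases. Between them lay the translation factors at -0.27, the assembly factors at -0.17 and the genes of mitochondrial DNA expression and replication at -0.12. The subunits of other names and the biogenesis regulators were each at -0.16. The part of length, or of library properties that go with it, in the stage difference was not tested.

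**Figure D3:**
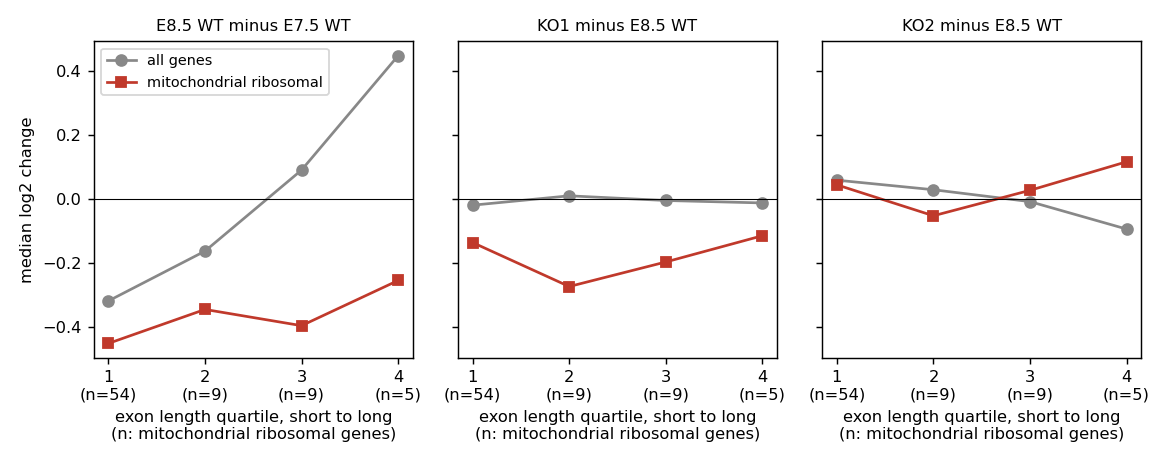
Median log2 change by quartile of exon length, from short (1) to long (4), for all genes (grey) and for the mitochondrial ribosomal protein genes (red), in 3 comparisons, with the number of members under each quartile. In the left panel the grey line climbs from -0.32 to 0.45 while the red line stays between -0.45 and -0.26, and in the other panels the grey line stays near 0.

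The comparison of the KO libraries with E8.5 WT, the wild type of the same embryonic day, asks how these transcripts differ with genotype at that age. Per the study's text, KO embryos of E8.5 were delayed in development, and some looked like E7.5 controls. Genotype and developmental stage thus cannot be told apart in this comparison. The median log2 change of the 77 genes was -0.16 in KO1 and 0.04 in KO2, so the libraries lay on either side of 0. In KO1 62 of 77 members were below E8.5 WT, and in KO2 33 were. Over all genes the medians were -0.01 and -0.00, with 7331 and 7215 of 14393 below 0. A log2 change past 1 in both KO libraries was found in 0 members, against 3.44% of all genes higher and 1.79% lower. The counting interval lay above 0 in both KO libraries for 3 members, against 13.7% of all genes, and below 0 in both for 6, against 15.8%. When edgeR's quasi-likelihood test set KO1 and KO2 against E8.5 WT, 0 members passed an adjusted p of 0.05, against 0.0% of all genes, and 0 had an unadjusted p under it, against 7.22% of all genes. The smallest unadjusted p was 0.0503, for Mrpl17. DESeq2 called 0 members, against 0.288% of the genes it adjusted (35 of 12159), so that a count of 0 among 77 is near the background. With 1 wild-type library the spread in this test came from the KO libraries alone. A miss of the threshold does not show that the levels were the same.

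The 6 genes with intervals below 0 in both KO libraries were Mrpl17, Mrpl41, Mrpl3, Mrpl39, Mrps23 and Mrpl10, 5 of them of the large subunit. Mrpl17 (chr7:105803206-105811099), whose promoter with NRF1 letters is printed above, had 1015, 914, 413 and 708 reads in library order. In both KO libraries it was below both wild-type libraries, with log2 changes against E8.5 WT of -0.59 (interval -0.77 to -0.43) and -0.36 (-0.50 to -0.21), a mean of -0.48 ± 0.17 (SD, n = 2). The adjusted p by edgeR with Benjamini-Hochberg adjustment was 0.669. Mrpl41 (chr2:24974117-24975098), a mitochondria-specific protein that has also been studied in cell cycle control, had 339, 271, 145 and 172 reads. Its changes were -0.35 and -0.64, a mean of -0.49 ± 0.20 (SD, n = 2), and its adjusted p by edgeR was 0.672. Mrpl3, of the peptidyl transferase region, had 804, 828, 471 and 711 reads, which gave changes of -0.26 and -0.21. It hardly differed between the wild-type stages, so that both KO libraries were below both wild types. Mrpl39, Mrps23 and Mrpl10 had mean changes of -0.24, -0.26 and -0.15 against E8.5 WT, with KO libraries that lay at most 0.12 apart.

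Mrps36, the 2-oxoglutarate dehydrogenase component, was at -0.24 and -0.27 against E8.5 WT. Mrps10, the gene that was higher in E8.5 WT than in E7.5 WT, was at -0.21 and -0.32, between the wild-type stages in both KO libraries.

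The 3 genes with intervals above 0 in both KO libraries were Mrpl34, Mrps6 and Mrps18a. Mrpl34 had changes of 0.36 (interval 0.15 to 0.58) and 0.72 (0.54 to 0.92), a mean of 0.54 ± 0.26 (SD, n = 2) with an adjusted p by edgeR of 0.669. Mrps18a had changes of 0.25 and 0.49. For both of these genes E8.5 WT was the lowest of the 4 libraries and both KO libraries lay between the wild-type stages. Mrps6 had 281, 207, 181 and 286 reads in library order and changes of 0.35 and 0.47. Its exons overlap those of Slc5a3 on the same strand, so that its reads are uncertain. Mrpl55 and Mrpl53 were at 0.32 and 0.20, and at 0.17 and 0.21, against E8.5 WT. Mrpl53, a stalk protein, was the member above both wild types in both KO libraries, with 385, 390, 299 and 447 reads. Its counting interval lay above 0 only for KO2 against E8.5 WT (0.01 to 0.41). It held 0 for KO1 against E8.5 WT (-0.06 to 0.39) and for both KO libraries against E7.5 WT. Without overlap of the groups, 32 members had both KO libraries below both wild types, against 17.6% of all genes, and 1 had both above, against 18.4%. E7.5 WT was the highest library for 69 of 77 members, so this count rests mostly on the comparison with E8.5 WT. Both KO libraries were also below both wild types for 74 of 83 cytosolic ribosomal and 37 of 91 nuclear oxidative phosphorylation genes.

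Set against E7.5 WT, both KO libraries were lower for nearly all members. The median log2 change was -0.58 in KO1, with 75 of 77 members below 0, and -0.38 in KO2, with 72 below 0. Over all genes the medians were 0.02 and 0.07, with 6990 and 6564 of 14393 below 0. The counting interval lay below 0 in both KO libraries for 60 members, against 23.6% of all genes, and above 0 in both for 1, against 26.0%. A change past -0.5 in both was found in 27 members, against 11.0% of all genes, and a change past 1 in 0 members, against 6.91% higher and 2.70% lower. These values share E7.5 WT with the stage comparison and the KO libraries with the one before. Centred on genes of like exon length, the medians were -0.30 and -0.25. When edgeR set KO1 and KO2 against both wild types as 1 group, 0 members passed the adjusted threshold, against 0.0% of all genes, and 1, Mrpl17, had an unadjusted p under 0.05 (0.0366, adjusted 0.90), against 3.93% of all genes. DESeq2 called 0 members in this comparison, against 0.222% of all genes.

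**Figure D4:**
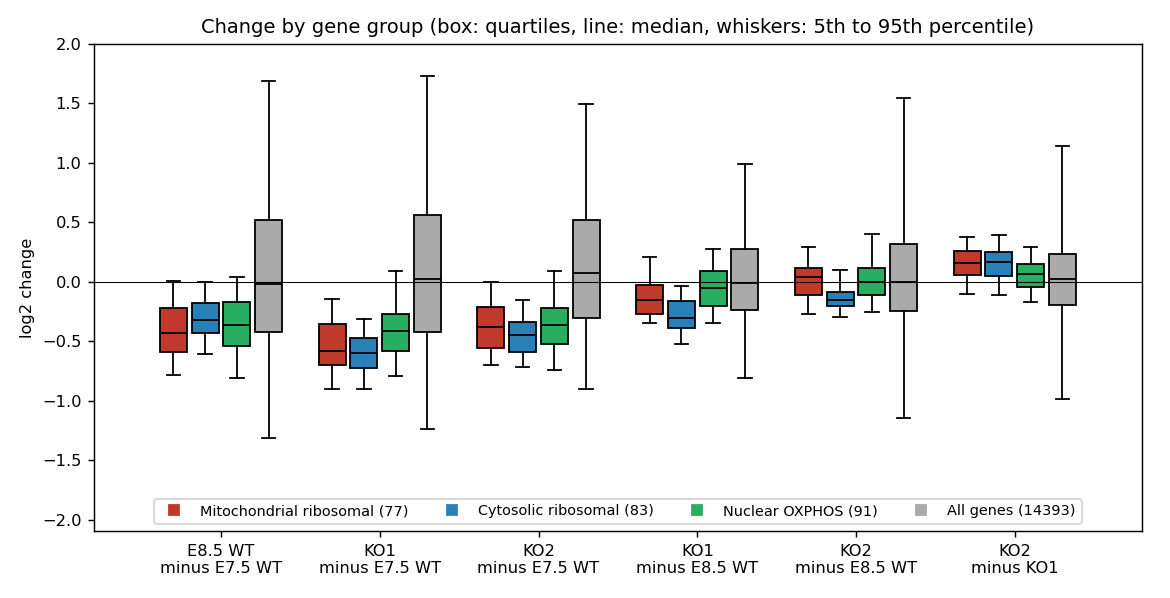
Log2 change in 6 comparisons for the 77 mitochondrial ribosomal, 83 cytosolic ribosomal, 91 nuclear oxidative phosphorylation (OXPHOS) and 14393 genes at large; boxes span the quartiles, lines mark medians and whiskers reach from the 5th to the 95th percentile. All 3 gene groups lie below 0 against E7.5 WT, and against E8.5 WT the cytosolic group has the lowest medians, -0.31 in KO1 and -0.15 in KO2.

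The KO libraries differed from each other by about as much as KO1 differed from E8.5 WT. The median log2 change of KO2 against KO1 was 0.16, and 67 of 77 members were higher in KO2 and 10 lower. Over all genes the median was 0.02, and 6729 of 14393 were lower in KO2. By quartile of exon length, from short to long, the median over all genes was 0.095, 0.051, 0.009 and -0.054. Centred on genes of like exon length, the median of the members was 0.093, with 22 of 77 below 0. The part of length in this difference was not tested. The counting interval lay above 0 in 28 members, against 21.8% of all genes, and below 0 in 1, Mrpl42, against 19.0%. A change past 1 was found in 0 members, against 5.99% of all genes higher and 4.89% lower. Mrps11, which differed most, had 440, 263, 144 and 319 reads. It was below E8.5 WT in KO1 (-0.32) and above it in KO2 (0.29), and its KO2 to KO1 change was 0.61 with an interval of 0.32 to 0.90. Mrpl51 and Mrpl22 followed at 0.47 and 0.40. Mrpl41, Mrpl14 and Mrpl42 were lower in KO2 than in KO1, at -0.29, -0.19 and -0.14. KO2 was also the library with the highest summed level of the trophoblast list given above. Prl8a2, a marker of maternal decidua, had 1318, 26, 64 and 1433 reads in library order, so that E7.5 WT and KO2 were both high. Of the 5 decidua markers, 3 were lower in KO2 than in KO1. The part of these tissues in the difference between the KO libraries was not tested.

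Other groups of genes place these values. The 83 cytosolic ribosomal protein genes were lower than the mitochondrial ones against E8.5 WT, with medians of -0.31 in KO1 and -0.15 in KO2, and 63 of them had intervals below 0 in both KO libraries, against 15.8% of all genes. Between the wild-type stages their median was -0.32. The 91 nuclear genes of oxidative phosphorylation, whose complexes hold the products of the mitochondrial ribosome, were at medians of -0.05 and -0.00 in KO1 and KO2 against E8.5 WT and of -0.37 between the stages. E7.5 WT was the highest library for 77 of the 83 and 80 of the 91 genes. A highest level in E7.5 WT was thus seen in these groups as well. Differences between the groups were not tested.

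**Figure D5:**
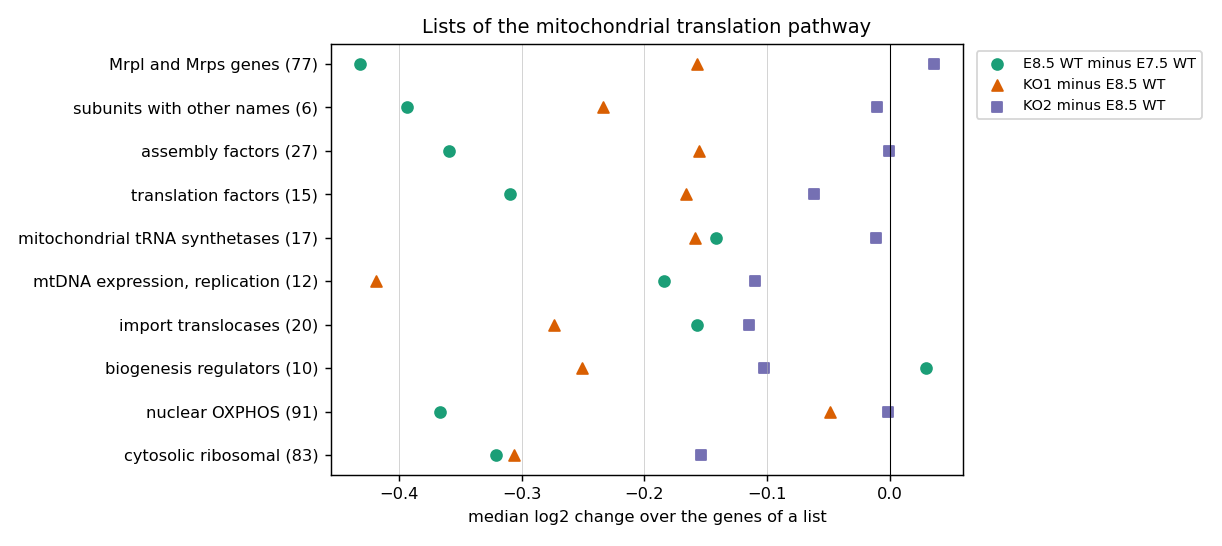
Median log2 change of the gene lists of the mitochondrial translation pathway, with the number of genes past the count minimum in brackets, between the wild-type stages (circles) and in each KO library against E8.5 WT (triangles and squares). KO1 is below KO2 for each of the 10 lists, and the stage medians run from -0.43 for the Mrpl and Mrps genes to 0.03 for the biogenesis regulators, without centring by exon length.

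The 6 ribosomal subunits under other symbols had a median stage change of -0.39. Dap3, a GTP-binding small-subunit protein, had 1576, 936, 568 and 937 reads in library order, a stage change of -0.80. Ict1, a peptidyl-tRNA hydrolase built into the large subunit, stood at -0.28. Ptcd3, with pentatricopeptide repeats, went the other way at 0.32, and its KO libraries were at -0.32 and -0.30 against E8.5 WT.

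Of the factors that build and run the ribosome, the 27 assembly factors had medians of -0.36 between the stages and of -0.16 and -0.00 in KO1 and KO2 against E8.5 WT. Intervals lay below 0 in both KO libraries for 7 and above 0 for 2, where the shares over all genes, which hold for the lists that follow as well, were 15.8% and 13.7%. Fastkd5, an RNA-binding protein of mitochondrial RNA processing, had 471, 444, 207 and 305 reads and changes of -0.55 and -0.53 in the KO libraries. Mpv17l2 had 164, 88, 88 and 140 reads and was at 0.54 and 0.67. The 15 translation factors had a stage median of -0.31, with intervals below 0 in both KO libraries for 3 and above 0 for 2, near the shares over all genes. Guf1, a translation GTPase related to bacterial LepA, was at -0.44 and -0.50, and Mtfmt, which formylates the initiator tRNA, at 0.46 and 0.59. The 17 mitochondrial tRNA synthetases had a stage median of -0.14, or -0.30 when centred by exon length. In both KO libraries 3 (17.6%) lay below and 1 above, against 15.8% and 13.7% of all genes. The latter was Fars2, at 0.81 and 0.53.

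The 12 genes of mitochondrial DNA expression and replication were at medians of -0.42 and -0.11 in KO1 and KO2 against E8.5 WT, with intervals below 0 in both for 5 and above 0 for 1, against 15.8% and 13.7% of all genes. Tfam, which packs and transcribes mitochondrial DNA, had 1163, 1310, 662 and 998 reads and changes of -0.43 and -0.38, and the exonuclease gene Mgme1 was at -0.82 and -0.58. The 20 import translocase genes, which serve protein import into the organelle, had medians of -0.27 and -0.11. Of these, 8 lay below and 0 above in both, against the same shares. The 10 regulators of mitochondrial biogenesis were at medians of -0.25 and -0.10 in KO1 and KO2, with 4 below and 0 above in both, against the same shares. Myc had 1112, 898, 262 and 521 reads and changes of -1.22 and -0.77. Nrf1 was at -0.28 and -0.26 and Gabpb1 at -0.23 and -0.41, while Ppargc1b and Esrra went the other way, at 0.42 and 0.36 and at 0.11 and 0.26. In none of these lists did a gene pass an adjusted p of 0.05 in edgeR, where over all genes tested 0 passed and 1039 had an unadjusted p under 0.05. Transcripts of the mitochondrial genome itself were not analysed here.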

How the data were processed

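Polyadenylated RNA of 4 whole-embryo libraries was sequenced from stranded libraries. The authors deposited raw counts per gene without normalization. Per their methods, reads were trimmed with Cutadapt 2.8, checked with FastQC 0.11.7, aligned to mm10 with HISAT2 2.1.0, handled with SAMtools 1.9 and counted over exons by strand with featureCounts 2.0.0. The stated options name no counting of reads that map to more than 1 place, which the tool leaves out by default. The annotation holds 5 named pseudogenes of these genes, so reads of close copies may be lost or split.

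Counts were normalized by TMM in edgeR 4.0.16 (R 4.3.3) over all genes with a read, with the prior count of 2 and the count minimum of 10 named in the report. Changes were differences of log2 CPM. Counting intervals were exact Clopper-Pearson 95% intervals of a gene's reads in a pair of libraries, and leave out all error but that of counting, as PCR copies were not told apart by molecular identifiers. RPKM used the exon union of RefSeq-matched GENCODE vM21 transcripts (GRCm38, the sequence of mm10), and 98.3% of the gene symbols matched. EdgeR quasi-likelihood tests and DESeq2 1.42.0 were two-sided with Benjamini-Hochberg adjustment over all 14393 genes, except that DESeq2's filter left 12159 in the comparison with E8.5 WT, and the code was tested on simulated data.

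Named genes were those with listed roles, the 5 with the largest rise and fall against E8.5 WT by the smaller KO change and between the stages, the 3 each way between the KO libraries, and the 5 of highest and lowest RPKM. Genes with intervals past 0 in both KO libraries, Mrps18b, Ptcd3, Nrf1, Esrra, the partner genes and the promoters printed were named after their values were seen. The members and lists were chosen with earlier results of these data known. Alternatives tried were other scaling, filters, prior count and threshold, leaving out a KO library, and centring by exon length, which was chosen after seeing the data.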

Additional observations from a re-analysis of the deposited data

How the results depend on the processing

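No member passed a log2 change of 1 in both KO libraries, or between the wild-type stages or the KO libraries, under any scaling, filter or prior count tried. With DESeq2 size factors the median between the wild-type stages was -0.46 in place of -0.43. With a threshold of 0.5, 27 members lay below E7.5 WT in both KO libraries, 29 were lower and 1 higher in E8.5 WT than in E7.5 WT, and 1 was higher in KO2 than in KO1. Without KO replicate 1 or KO replicate 2, the count past 1 below E7.5 WT ranged from 1 to 1 (Mrps11 by KO1 alone, Mrpl41 by KO2 alone), and the count with an unadjusted edgeR p under 0.05 against both wild types ranged from 0 to 0, in place of 1. Against E8.5 WT that count was 1 without a filter and 1 with DESeq2 size factors, in place of 0. Centring on exon length, chosen after seeing the data, moved the medians to -0.28 (KO against E7.5 WT), -0.19 (E8.5 WT against E7.5 WT) and 0.093 (KO2 against KO1). Without the 10 genes with the most reads in the total, the share of reads was 0.467%, 0.344%, 0.325% and 0.362% in library order. The cause of these moves was not tested, apart from the smaller total and the lower threshold, which act by construction. Of the other values, 98 summary values and 660 single-gene values stayed within the spread of replicates or within 1.5 times the main count, and 30 single-gene values moved. Against E8.5 WT, the edgeR test without a KO library would leave 1 library a group with no residual degrees of freedom, and was not run. No paired analysis was possible because the replicate numbers exist in the KO group alone. A change smaller than the counting interval of a gene was not detectable at this depth.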
